A study of Mus musculus with 42 samples.

Results

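NADPH oxidases are membrane enzymes that pass electrons from NADPH to oxygen and so make superoxide or hydrogen peroxide. 7 of the 21674 genes of the deposited expression table were followed by name: Cybb, Cyba, Ncf1, Ncf4, Nox4, Rac1 and Rac2. They were read in all 42 libraries, 35 from carotid intima and 7 from cultured endothelial cells, to set the oxidase of leukocytes beside that of endothelial cells.

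In phagocytes the catalytic subunit Cybb (gp91phox, also called NOX2) sits in the membrane with its partner Cyba (p22phox). It stays silent until cytosolic subunits, among them Ncf1 (p47phox) and Ncf4 (p40phox), move to it together with a Rac GTPase, which in blood cells is largely Rac2. Nox4, the catalytic subunit best known from endothelial and other vessel wall cells, also needs Cyba but is active without the cytosolic subunits, and Rac1 is the Rac GTPase of most tissues.

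The intimal RNA was flushed with Trizol from mouse carotid arteries after partial ligation of the left carotid, which lowers its flow, and the contralateral artery of the same mice served as the high-flow artery. The mice of the 48 hr experiments were C57BL/6J males 6 to 7 weeks old, and there were 3 untreated pools each of low-flow, high-flow and sham-operated arteries. The names a, b and c stand for the 3 pools of a group in alphabetical order of their columns and link no pools across groups. Per the labels every artery library was a pool of 3 to 5 flushes. Treated mice received a platelet-depleting antibody to GPIba (50 µg) at ligation, an antibody to Gr1 (25 µg) against neutrophils 24 hr before it, the control IgG, or liposomes with clodronate against phagocytes or with PBS at ligation. Each of these 5 groups had 2 low-flow libraries, and IgG and PBS liposomes had 2 high-flow libraries each. Of the PBS and the clodronate treatments, 1 more low-flow library each was sequenced in the first run. The 7 day experiment used males and females 2 to 7 months old carrying floxed Rbfox2 and the mTmG reporter. The EC-KO mice also carried Cdh5(PAC)-CreERT2, which deletes Rbfox2 in endothelial cells, and the controls were littermates without Cre. There were 3 low-flow and 2 high-flow libraries of each genotype, called here by their column numbers 1, 4 and 5. The cultures were 1 aortic endothelial cell line immortalised with TetOn-SV40 and primary endothelial cells, with 1 library each. The line was kept alone or for 48 hr with 10% plasma, with platelets and bone marrow monocytes or macrophages, or with all of these. Primary cells were sorted from control and EC-KO mice, with 7 days in culture, and on eGFP, with 5 days. By the study's methods, the line and the eGFP-sorted cells came from mice with Cdh5(PAC)-CreERT2 and mTmG.

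Libraries held 4064477 to 19035957 counts. The 11 endothelial markers summed to 1617 to 2090 FPKM in the untreated low-flow pools, 4078 to 4377 at high flow and 3478 to 4464 in sham pools, to 1694 to 3800 in the treated low-flow libraries and 4230 to 5963 in the treated high-flow ones. They summed to 1534 to 2048 FPKM in the primary cells, but to only 143 to 164 in the cell line. The 6 smooth muscle markers summed to 1648, 2768 and 3480 FPKM in the eGFP-sorted, EC-KO and control primary cells, above their endothelial sums. Macrophage markers, 12 genes, summed to 2145 to 3496 FPKM at low flow against 64.9 to 165 at high flow and 212 to 659 in sham pools. Low-flow pools a and b stood apart from the other untreated pools, since their 10 most abundant genes took 22.8% and 23.5% of all counts against 9.27% to 10.6% in the other 7. In Rbfox2 EC-KO libraries Rbfox2 itself was at 0.17 to 1.09 FPKM at low flow, under all 3 controls (2.74 to 5.73), and at 0.79 and 1.05 at high flow against 3.66 and 3.84. These values follow the labels, although the edgeR adjusted p of Rbfox2 at low flow was 0.692 (log2 fold-change -2.61).

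Positions of the 7 genes are those of the mm9 assembly. Cybb lies at chrX:9012378-9064897 on the minus strand, Cyba at chr8:124948672-124956840 (minus), and Nox4 at chr7:94394606-94547220 (plus). Ncf1 lies at chr5:134695923-134705495 (minus) and Rac1 on the same chromosome at chr5:144266346-144288904 (minus). Ncf4 at chr15:78075231-78093010 (plus) and Rac2 at chr15:78389599-78403213 (minus) share another. Values are gene totals over all transcripts. Rac1 and Rac2 have coding sequences of 579 bases each that are 77.0% identical, and their longest shared run is 29 bases, which is shorter than the reads.

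The promoter of Cybb is shown because Cybb had the lowest p of the 7 genes between the untreated flows. RefSeq promoter windows (build GRCm38.p6, 250 bases before to 50 after the start) matched 4 of the 7 genes, Cybb, Cyba, Ncf1 and Nox4. The letters GAGGAA, the core of sites bound by the myeloid factor PU.1, and the pattern TGANTCA were searched on both strands. TGANTCA leaves the central base open and so is wider than the AP-1 site, TGA(C/G)TCA. Of the 4 promoters each pattern was found in Cybb alone, while 28.3% and 7.81% of all 32851 promoters of this length hold them. The TGANTCA match in Cybb has A at the centre and so does not hold the AP-1 letters. The first window lies at chrX:9469298-9469327 with the match 10 bases after the start on the strand opposite to the gene, and the second at chrX:9469445-9469474 with the match 139 bases before the start. Both are written 5′ to 3′ along the gene, with the match in capitals. A match is a description of letters and not a measured site.

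Cybb, GAGGAA on the other strand: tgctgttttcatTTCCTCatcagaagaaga

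Cybb, TGANTCA: ttacttgtgacTGAATCAcaagatcttttc

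The first question was how the subunits differ between arteries of low and high flow at 48 hr. FPKM here is the count of a gene scaled to its effective length and to the total count of the library. Cybb stood at 12.5, 10.1 and 24.9 FPKM in low-flow pools a, b and c, at 0.713, 1.32 and 1.15 in the high-flow pools, and at 1.70, 2.99 and 5.07 in the sham pools. Every low-flow pool lay above every other pool. Against high flow the edgeR log2 fold-change was 4.49 ± 0.23 (SE, n = 3 pools each, adjusted p = 1.2e-06), and against sham it was 2.92 ± 0.35 (adjusted p = 0.00135).

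The cytosolic organizer Ncf1 followed, with 3.83, 5.16 and 12.1 FPKM at low flow, 0.0911, 0.892 and 0.599 at high flow and 0.552, 1.43 and 3.66 in sham pools. The highest sham pool lay just under the lowest low-flow pool. The log2 fold-change was 4.19 ± 0.43 against high flow (edgeR adjusted p = 2.59e-05) and 2.46 ± 0.50 against sham (adjusted p = 0.00716). Ncf4, which binds membrane lipids and holds the complex there, had 15.2, 26.8 and 34.7 FPKM at low flow, 0.537, 1.504 and 0.336 at high flow and 1.81, 2.63 and 7.82 in sham pools, again with no overlap of low flow with either group. Its change was the steepest of the 7 genes, 5.53 ± 0.42 against high flow (edgeR adjusted p = 4.24e-06) and 3.30 ± 0.48 against sham (adjusted p = 0.00198).

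Rac2, the GTPase of blood cells, rose in the same comparison. Its low-flow pools had 24.5, 35.9 and 41.8 FPKM, its high-flow pools 1.22, 3.58 and 1.75, and its sham pools 3.12, 13.1 and 11.8. The low-flow pools were again above all others. The log2 fold-change was 4.64 ± 0.37 against high flow (edgeR adjusted p = 5.25e-06) and 2.62 ± 0.47 against sham (adjusted p = 0.00426). Among the sham pools the highest Rac2 level, in pool b, came with a T and B cell marker sum of 107 FPKM against 10.0 and 14.7 in pools a and c, and the part of these cells in it was not tested.

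**Figure D1:**
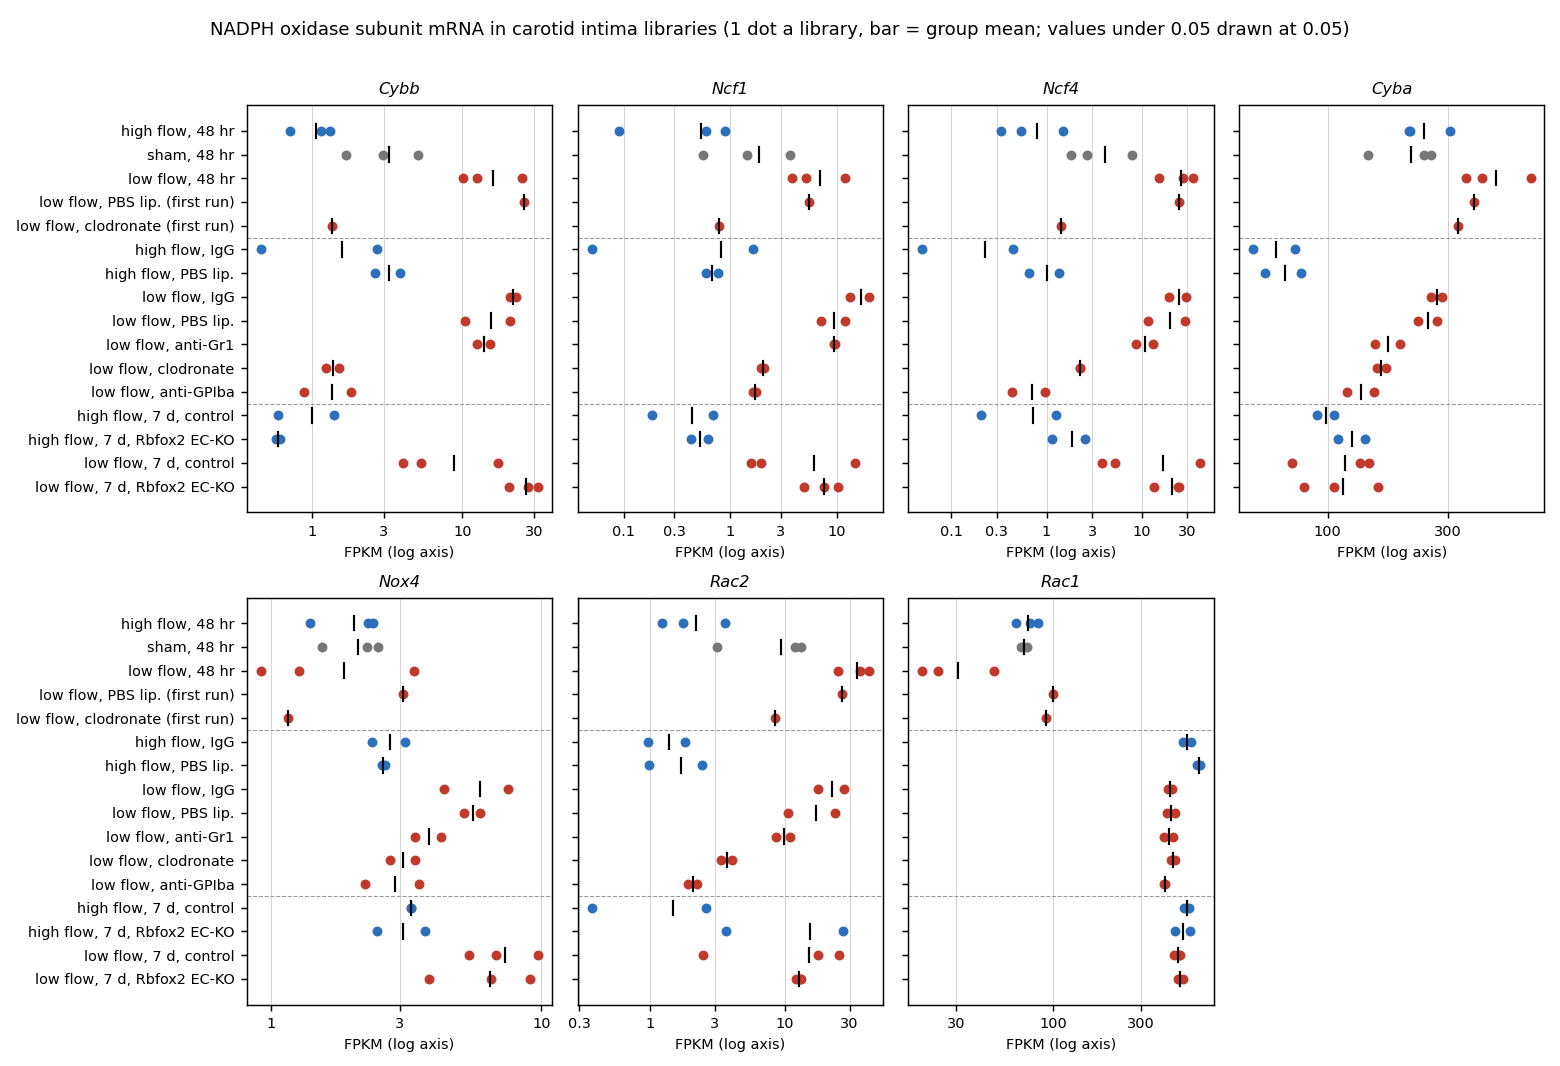
Level of each subunit gene in every carotid intima library, in FPKM on a log axis, with 1 dot a library, a vertical bar at the group mean, and red, blue and grey for low flow, high flow and sham. The low-flow dots of Cybb, Ncf1, Ncf4 and Rac2 lie to the right of the high-flow dots in untreated pools and left of their controls after anti-GPIba and clodronate, while Nox4 overlaps between the untreated groups and Rac1 splits by sequencing run.

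The shared membrane partner Cyba was abundant in every artery. It stood at 355, 641 and 409 FPKM at low flow, 305, 212 and 211 at high flow and 257, 145 and 242 in sham pools, so the low-flow pools overlapped with neither group but lay much closer to them than for Cybb. The log2 fold-change was 1.77 ± 0.39 against high flow (edgeR adjusted p = 0.00423) and 1.98 ± 0.43 against sham (adjusted p = 0.00901). As FPKM, Cybb was 1.58% to 6.09% of the Cyba level at low flow and 0.234% to 0.622% at high flow. With pool c as the only low-flow pool the change against high flow was 0.81 and did not pass (adjusted p = 0.0818), a setting added after the data were seen.

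Nox4, the catalytic subunit known from endothelial and other vessel wall cells, did not pass the test in any untreated comparison. Its low-flow pools had 0.920, 1.27 and 3.396 FPKM, its high-flow pools 1.40, 2.39 and 2.30, and its sham pools 1.55, 2.27 and 2.5, and the 3 ranges overlapped. The log2 fold-change was 0.42 ± 0.32 against high flow (95% interval -0.29 to 1.13, edgeR adjusted p = 0.305) and 0.41 ± 0.32 against sham (-0.31 to 1.12, adjusted p = 0.324). The scaling decides the sign: with library totals in place of TMM factors, a setting added later, it was -0.13 and -0.18, while the median of all genes moved from -0.07 to -0.69 and from -0.04 to -0.71. Under both scalings the value of Nox4 lay above that median. Scaled by TMM, the pools stood at 2.08, 2.89 and 3.68 at low flow and 1.67, 2.65 and 2.49 at high flow.

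The ratio of the catalytic subunits within a library does not depend on scaling. Cybb over Nox4 was 13.6, 7.95 and 7.35 in low-flow pools, 0.510, 0.550 and 0.4999 in high-flow pools and 1.09, 1.32 and 2.03 in sham pools. The mRNA of the leukocyte enzyme thus exceeded that of Nox4 in all low-flow and sham pools and fell short of it in all high-flow pools.

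Rac1, the GTPase of most cells, went the other way. It stood at 23.7, 19.6 and 48.2 FPKM at low flow, 63.1, 75.2 and 82.5 at high flow and 67.3, 72.4 and 68.5 in sham pools, with all low-flow pools under the rest. The edgeR log2 fold-change was -0.66 ± 0.18 against high flow (adjusted p = 0.0137) and -0.54 ± 0.16 against sham (adjusted p = 0.0301). The first call was lost without low-flow pool b (adjusted p = 0.056) or high-flow pool c (0.0557) and with low-flow pool c alone (-0.54, 0.158), and the second without low-flow pool a, low-flow pool b or any single sham pool (0.0703 to 0.0973), with low-flow pool c alone (0.248) and with no filter (0.0717).

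Of the 7 genes, 5 were called higher and 1 lower at low flow than at high flow, 6 in all, where the same edgeR test called 46.2% of all genes (23.6% higher and 22.6% lower). Their median log2 fold-change was 4.19 beside -0.07 for all genes tested. Against sham, 5 were higher and 1 lower, beside 40.3% of all genes (20.6% higher and 19.7% lower). Between high flow and sham edgeR called none of the 7, beside 0% of all genes, while 4 were under an unadjusted p of 0.05, and with DESeq2 1 was called, beside 0.828% of all genes. That one was Rac2, with a log2 fold-change of -2.02 in edgeR (adjusted p = 0.329) and a DESeq2 adjusted p of 0.0124. Cybb was at -1.57 (edgeR adjusted p = 0.329) and Nox4 at -0.01 (0.998) there, with Ncf1 at -1.74 (0.584), Ncf4 at -2.25 (0.377), Cyba at 0.23 (0.912) and Rac1 at 0.13 (0.911). With low-flow pool c alone against sham, none of the 7 passed, and Cybb was at 3.01 (edgeR adjusted p = 0.0597). In bulk RNA such as this, fewer cells of a type and less RNA per cell cannot be told apart.

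The rise of the phagocyte subunits went with leukocyte markers. The 6 markers of all leukocytes summed to 561 to 808 FPKM at low flow and 13.7 to 31.4 at high flow. Of 5 smooth muscle markers tested, 3 were called higher and none lower, with sums of 1444 to 2698 FPKM at low flow and 316 to 379 at high flow. Of 11 endothelial markers, 1 was called higher and 4 lower. The neutrophil markers summed to 507 to 1213 FPKM at low flow and 17.9 to 34.7 at high flow. The part of these cells in the levels of Cybb, Ncf1, Ncf4 and Rac2 was not tested.

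**Figure D2:**
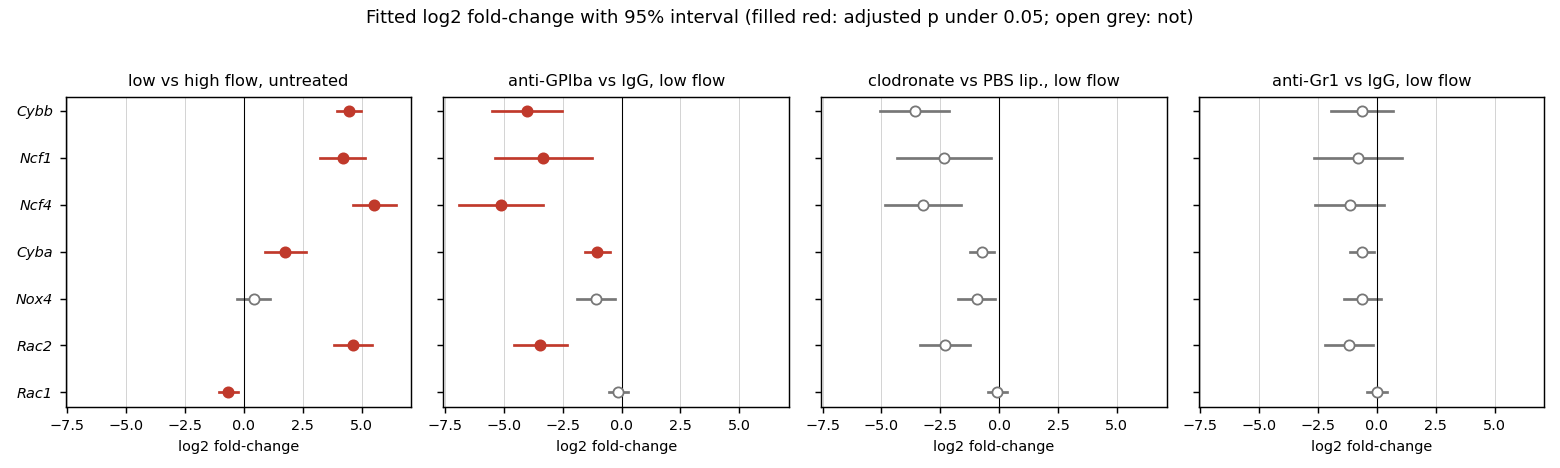
Log2 fold-change of each subunit gene in 4 comparisons, in 1 panel each, with bars for the 95% interval of the edgeR fit, red filled points for an adjusted p under 0.05 and open grey points for the rest. Cybb, Ncf1, Ncf4 and Rac2 lie at 4.19 to 5.53 between the flows and at -5.12 to -3.32 after anti-GPIba, both filled, and the clodronate and anti-Gr1 points are open.

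The wider pathway was read from a list of 41 genes. At 48 hr, 28 of them were tested between untreated low and high flow, and 11 were higher and 5 lower, beside the 23.6% and 22.6% of all genes. None of the 4 other oxidase enzymes (Nox1, Nox3, Duox1, Duox2) reached the count needed for the test. Among organizers and related factors, of which 7 were tested, 1 was higher and 1 lower. These were Sh3pxd2b (log2 2.36, edgeR adjusted p = 0.00031), a scaffold related to Ncf1, and the organizer Noxo1 (-1.39, adjusted p = 0.0302). Poldip2, which binds Cyba, was at 0.52 and did not pass (edgeR adjusted p = 0.0888). Of 7 Rac regulators and relatives tested, 5 were higher and none lower. Vav1 and Dock2, which load Rac with GTP in blood cells, stood at 4.41 and 3.90 (edgeR adjusted p = 1.13e-05 and 5.45e-05), and Tiam2, another exchange factor, at 1.96 (0.00206). Of 9 kinases, 3 were higher and 1 lower, among them protein kinase C delta (Prkcd, 1.71, edgeR adjusted p = 0.000124), Pak1 (2.38, 0.000156) and Prkcb (1.72, 0.000805). Of 5 genes that handle superoxide and its products, 2 were higher and 3 lower. The proton channel Hvcn1, which offsets the charge moved by the oxidase, was at 1.54 (edgeR adjusted p = 0.00285), and the superoxide dismutases Sod3 and Sod2 were at -1.54 (0.00406) and -0.79 (0.0157).

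The treated arteries gave a second view of flow at 48 hr, but here the low-flow libraries came from one sequencing run and the high-flow libraries from another, so flow and run cannot be told apart. Cybb had 22.6 and 20.7 FPKM in the low-flow IgG libraries and 0.459 and 2.69 in the high-flow ones. With PBS liposomes it had 10.4 and 20.5 at low flow and 2.65 and 3.84 at high flow. In both treatments low flow lay above high flow, by a log2 of 3.67 ± 0.67 under IgG (edgeR adjusted p = 0.00253) and 2.36 ± 0.63 under PBS liposomes (adjusted p = 0.0146). Over the alternative settings these values ran from 2.90 to 5.50 and from 1.80 to 2.77.

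Cyba was at 258 and 285 FPKM at low flow under IgG and 74.2 and 50.5 at high flow, a log2 of 2.05 ± 0.24 (edgeR adjusted p = 0.000586). Under PBS liposomes it was at 229 and 273 against 56.3 and 78.6 (2.01 ± 0.24, adjusted p = 0.000374). Neither pair of groups overlapped. The levels of Cyba also moved with the run: artery libraries of the first run held 145 to 641 FPKM, the run of the treated low-flow libraries 119 to 285, and the run of the treated high-flow libraries 50.5 to 140.

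The cytosolic subunits separated in the same way. Ncf4 had 29.2 and 19.1 FPKM at low flow under IgG, and at high flow 0 in library 1, where 3 counts would be 0.186 FPKM, and 0.449 in library 2. Its log2 fold-change was 6.57 ± 0.92 under IgG (edgeR adjusted p = 0.000915), a fitted value that depends on the prior count since one library is at 0 and that ran from 5.63 without high-flow library 1 to 11.96 without library 2, and 4.40 ± 0.79 under PBS liposomes (0.00231). Ncf1 was at 4.21 ± 1.00 (edgeR adjusted p = 0.00774, but 0.219 with DESeq2) under IgG. Ncf1 too had 0 counts in high-flow IgG library 1, where 3 counts would be 0.0947 FPKM, and 1.65 FPKM in library 2, so this fitted value ran from 3.24 without library 1 to 12.41 without library 2. Under PBS liposomes Ncf1 was at 3.91 ± 0.99 (edgeR adjusted p = 0.0118, lost without high-flow library 1 at 0.0957 or low-flow library 2 at 0.0574). Rac2 was at 3.92 ± 0.53 (edgeR adjusted p = 0.000811) and 3.44 ± 0.52 (0.00105). The macrophage markers summed to 2213 and 2358 FPKM at low flow and 70.9 and 267 at high flow under IgG (10 of 12 called higher), and to 1351 and 2228 against 108 and 201 under PBS liposomes (7 of 12). All 6 markers of all leukocytes were called higher under both. The part of these cells in the subunits was not tested.

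Nox4 passed the test in the treated arteries. It stood at 4.35 and 7.54 FPKM at low flow under IgG and 2.37 and 3.13 at high flow, and at 5.96 and 5.20 against 2.64 and 2.58 under PBS liposomes, without overlap. The log2 fold-change was 1.03 ± 0.36 (edgeR adjusted p = 0.0416) and 1.204 ± 0.36 (adjusted p = 0.0248). The call under IgG was lost without high-flow library 1 (0.174), high-flow library 2 (0.0575) or low-flow library 2 (log2 0.57, 0.353), and also with DESeq2 (0.078), with no filter (0.0668) and with these groups fitted alone (0.0961). The call under PBS liposomes was lost without any single one of the 4 libraries (0.0717 to 0.120). The smooth muscle markers summed to 2669 and 2853 FPKM at low flow and 263 and 408 at high flow under IgG, and to 3619 and 1829 against 259 and 513 under PBS liposomes, and their part in the level of Nox4 was not tested. Whether the response of Nox4 differed from that of the untreated pools was not tested.

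Rac1 held 444 and 421 FPKM at low flow under IgG and 506 and 558 at high flow (log2 -0.38 ± 0.19, edgeR adjusted p = 0.126). Under PBS liposomes its log2 was also -0.38 ± 0.19 (adjusted p = 0.138), and DESeq2 called it lower (-0.43, adjusted p = 0.0399). Its level cannot be compared with the untreated pools: the first run, with reads of 100 bases, held 19.6 to 100.2 FPKM in artery libraries and the later runs 401 to 626. Counts from reads trimmed to 100 bases left the treated low-flow libraries at 396 to 463 FPKM, so the gap remained at that read length, a setting added after the data were seen. Of the 7 genes, 6 were called higher under IgG, beside 40.5% of all genes (22.8% higher), and 6 under PBS liposomes, beside 35% (19.6% higher). DESeq2 called 4 under IgG, beside 40.3% of all genes, and all 7 under PBS liposomes, beside 43.3%. With high-flow library 1 or low-flow library 2 left out, the count under PBS liposomes fell to 3 and the call of Cybb was lost (edgeR adjusted p = 0.118 and 0.105).

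The depletion experiment asked how the low-flow artery changes without platelets, Gr1-positive cells or phagocytes. Its low-flow libraries came from 1 run, apart from 1 PBS and 1 clodronate library of the first run that are given further below. Cybb stood at 1.83 and 0.889 FPKM after anti-GPIba beside the 22.6 and 20.7 under IgG. It stood at 15.2 and 12.4 after anti-Gr1. After clodronate it was at 1.25 and 1.51, beside 10.4 and 20.5 with PBS liposomes. Both libraries of each depletion, anti-Gr1 included, thus lay below every one of their controls.

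Between anti-GPIba and IgG, Cybb fell by 4.02 on the log2 scale (SE 0.68, edgeR adjusted p = 0.0146). Ncf4, at 0.432 and 0.971 FPKM against 29.2 and 19.1, fell by 5.12 (SE 0.81, edgeR adjusted p = 0.0134). Rac2, at 2.23 and 1.91 FPKM against 27.2 and 17.5, fell by 3.46 (SE 0.51, edgeR adjusted p = 0.0113). In each of the 3 genes both anti-GPIba libraries lay below both IgG libraries, which can arise by chance with 2 libraries a group.

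Ncf1 had 1.65 and 1.76 FPKM after anti-GPIba and 20.1 and 13.5 under IgG, and fell by 3.32 (SE 0.94, edgeR adjusted p = 0.0389). Cyba had 119 and 153 FPKM against 258 and 285, and fell by 1.03 (SE 0.24, edgeR adjusted p = 0.0269), the smallest of the called changes. Nox4 had 3.54 and 2.22 FPKM against 4.35 and 7.54, a log2 of -1.08 ± 0.36 that did not pass with edgeR (adjusted p = 0.0593) and passed with DESeq2 (0.0429), and the groups did not overlap. Rac1 had 406 and 401 FPKM against 444 and 421, a log2 of -0.13 (95% interval -0.55 to 0.29, edgeR adjusted p = 0.644).

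Of the 7 genes 5 were called lower after anti-GPIba, where edgeR called 16.5% of all genes (10.5% lower), and DESeq2 called 6, beside 35.3%. The calls rest on 2 libraries a group. Without anti-GPIba library 1 or 2 none of the 7 passed (edgeR adjusted p of Cybb 0.0981 and 0.112), without IgG library 1 only Rac2 did, and without IgG library 2 Cybb, Ncf4 and Rac2 did, with all 5 fold-changes still negative. The macrophage markers summed to 219 and 337 FPKM after anti-GPIba and 2213 and 2358 under IgG, 6 of the 12 being called lower, and the neutrophil markers to 7.59 and 17.7 against 436 and 130. All 6 markers of all leukocytes were called lower. The smooth muscle markers summed to 422 and 596 FPKM after anti-GPIba and 2669 and 2853 under IgG, 2 of the 6 being called lower. The endothelial markers summed to 3800 and 3718 FPKM after anti-GPIba and 2278 and 1948 under IgG, 2 of the 11 being called higher. The part of these cells in the fall of the subunits and in the level of Nox4 was not tested. Of the 33 pathway genes tested, 2 were higher and 5 lower, beside the 16.5% of all genes called (10.5% lower). Vav1 was at -2.97 (edgeR adjusted p = 0.031), Prkcb at -3.07 (0.0433) and Prkcd at -1.01 (0.0488).

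After anti-Gr1 none of the 7 genes passed the edgeR test against IgG, beside 0% of all genes. At an unadjusted p below 0.05 there were 2, and DESeq2 called 0 (6.41% of all genes). Cybb had a log2 of -0.64 with a 95% interval from -1.95 to 0.67 (edgeR adjusted p = 0.574), so the interval holds both a fall by a log2 of 1 and no change. Ncf1 at 9.70 and 9.36 FPKM, Ncf4 at 12.9 and 8.73 and Rac2 at 10.9 and 8.57 lay below both IgG libraries. So did Cybb, Cyba and Nox4, while Rac1 overlapped. The genes below 0.05 before adjustment were Rac2 (log2 -1.19, edgeR adjusted p = 0.249) and Cyba, at 194 and 154 FPKM (-0.63, 0.243). Ncf1 was at -0.80 (edgeR adjusted p = 0.629), Ncf4 at -1.15 (0.369), Nox4, with 4.27 and 3.42 FPKM, at -0.62 (0.361) and Rac1 at -0.01 (0.986). The neutrophil markers summed to 23.1 and 43.7 FPKM and the macrophage markers to 1250 and 1277 in these libraries. Ly6g, a defining neutrophil marker, was not analysed here.

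Between anti-GPIba and anti-Gr1, Cybb was at -3.39 ± 0.66 (edgeR adjusted p = 0.106), Ncf4 at -3.97 ± 0.78 (0.106) and Rac2 at -2.27 ± 0.49 (0.117). Ncf1 was at -2.53 (edgeR adjusted p = 0.368), Cyba at -0.40 (0.576), Nox4 at -0.46 (0.672) and Rac1 at -0.12 (0.85). No member was called, beside 0% of all genes. At an unadjusted p below 0.05 there were 4, and DESeq2 called 4 (3.59% of all genes).

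Clodronate against PBS liposomes gave none of the 7 with edgeR, beside 0.119% of all genes, but 6 lay below 0.05 before adjustment, and 4 passed with DESeq2, beside 2.91% of all genes. Cybb was at -3.58 ± 0.67 (edgeR adjusted p = 0.0692, DESeq2 adjusted p = 1.72e-11). Ncf4, with 2.25 and 2.27 FPKM after clodronate and 11.7 and 28.1 with PBS liposomes, was at -3.24 ± 0.73 (edgeR adjusted p = 0.126), and Ncf1, with 2.08 and 1.96 against 7.07 and 11.98, at -2.34 ± 0.91 (0.287). Rac2 was at -2.31 ± 0.49 (0.1), with 3.33 and 4.04 FPKM against 10.6 and 23.5. In these 4 genes the groups did not overlap, which can arise by chance with 2 libraries a group. Without clodronate library 2, Cybb and Rac2 passed (edgeR adjusted p = 0.0419 and 0.0493). Nox4 had 2.77 and 3.41 FPKM against 5.96 and 5.20 (log2 -0.95, edgeR adjusted p = 0.28), also without overlap. Cyba had 157 and 170.2 FPKM against 229 and 273 (-0.72, edgeR adjusted p = 0.239), and Rac1 had 436 and 459 against 415 and 462 (-0.08, 0.881). The macrophage markers summed to 249 and 239 FPKM after clodronate and 1351 and 2228 with PBS liposomes, and the neutrophil markers to 52.9 and 70.5 against 173 and 498. The smooth muscle markers summed to 1487 and 1626 FPKM against 3619 and 1829. The part of these cells was not tested.

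The single libraries of the first run, 1 per treatment and with no test, went the same way. Cybb was at 25.8 FPKM with PBS liposomes and 1.36 with clodronate, Ncf4 at 24.7 and 1.42, Ncf1 at 5.50 and 0.789, and Rac2 at 26.5 and 8.38. Nox4 was at 3.08 and 1.16, Cyba at 382 and 330 and Rac1 at 100.2 and 92.3. Cybb, Ncf4 and Ncf1 were thus furthest apart, and Cyba and Rac1 were close. The macrophage markers summed to 1550 FPKM with PBS liposomes and 229 with clodronate.

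The ratio of Cybb to Nox4 in the treated libraries was 5.20 and 2.75 under IgG, 1.74 and 3.95 with PBS liposomes and 3.56 and 3.64 after anti-Gr1 at low flow. It was 0.517 and 0.400 after anti-GPIba and 0.451 and 0.444 after clodronate. Nox4 mRNA therefore exceeded Cybb mRNA in all 4 of these depleted libraries, as in the untreated high-flow pools. The clodronate library of the first run had a ratio of 1.17, beside 8.37 with PBS liposomes in that run. The treated high-flow libraries had 0.193 and 0.861 under IgG and 1.002 and 1.49 with PBS liposomes.

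**Figure D3:**
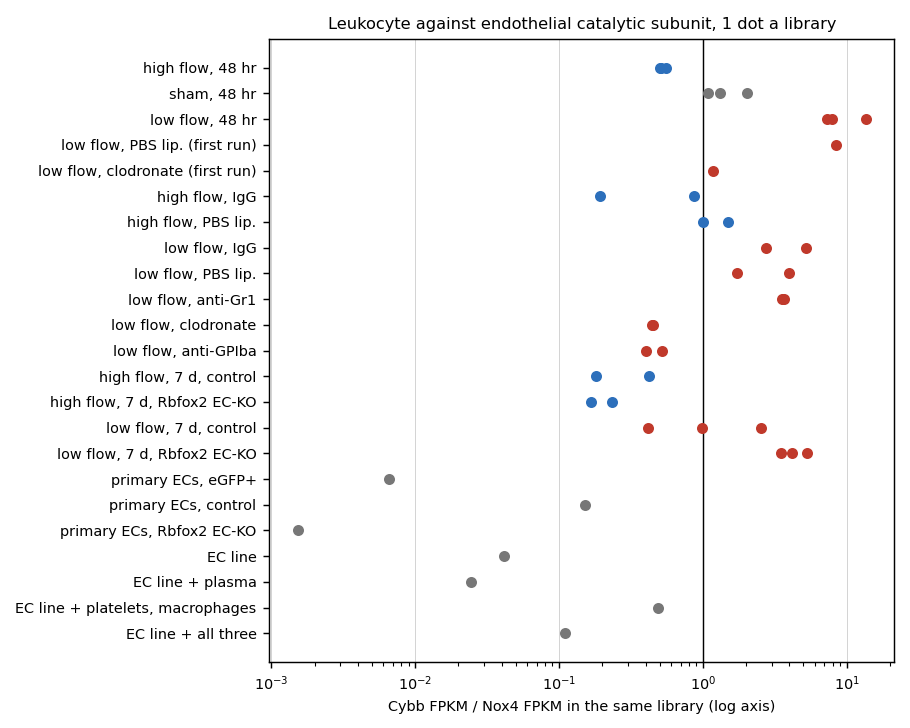
Ratio of Cybb to Nox4 FPKM in each library on a log axis, with a vertical line at 1 where both are equal, red for low flow, blue for high flow and grey for sham and cultures. The untreated low-flow pools sit between 7.35 and 13.6, the anti-GPIba libraries and the 2 clodronate libraries of the later run between 0.400 and 0.517, and all 7 cultures below 1.

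At 7 days the question was whether the flow response holds and whether loss of Rbfox2 from endothelial cells alters it. Control library 1 and EC-KO library 1 came from the run of the treated low-flow libraries, control library 5 and EC-KO library 4 at low flow from a run of their own, and the others from the run of the treated high-flow libraries. Cybb stood at 5.30, 17.2 and 4.04 FPKM in control low-flow libraries 1, 4 and 5, and at 1.40 and 0.598 in the control high-flow libraries. In EC-KO mice it stood at 20.4, 27.1 and 31.9 at low flow and 0.577 and 0.616 at high flow. The low-flow libraries of both genotypes lay above all high-flow ones, and the EC-KO low-flow libraries above all 3 controls.

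The flow response of Cybb was 3.05 ± 0.65 in controls (edgeR adjusted p = 0.044) and 5.45 ± 0.73 in EC-KO mice (adjusted p = 0.0146). The control value ran from 2.13 without low-flow library 4 to 3.76 without high-flow library 4. In controls Cybb was the 1 gene of the 7 called, beside 2.4% of all genes (0.959% higher), and in EC-KO mice again Cybb alone, beside 1.09% (0.352% higher). DESeq2 called 4 and 3 of the 7, beside 9.78% and 15.9% of all genes. Leaving out low-flow control 4 or 5 or high-flow control 4 or 5 took the call in controls away (edgeR adjusted p = 0.0526 to 0.335), and leaving out low-flow control 1 added Ncf1 and Ncf4 (0.0148 and 0.0114). Leaving out any of the 5 EC-KO libraries took the call there away (0.052 to 0.177).

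The difference between the genotypes in that response was 2.40 for Cybb (95% interval 0.52 to 4.27, edgeR adjusted p = 0.986, unadjusted p = 0.0173), which did not pass. Over the alternative settings it ran from 1.68 to 3.30. At low flow EC-KO against control gave 1.61 ± 0.51 for Cybb (edgeR adjusted p = 0.692, unadjusted p = 0.0104), with 1.29 to 2.52 over the alternative settings. The other 6 genes lay between -0.20 and 0.36 at low flow (edgeR adjusted p from 0.918 to 0.998). Without control low-flow library 4, Ncf1 was at 2.12 and Ncf4 at 2.20 there (edgeR adjusted p = 0.91 for both). Among the 7 genes edgeR called none there, beside 0% of all genes, 1 lay below 0.05 before adjustment, and DESeq2 called 0 (0.0645% of all genes). At high flow edgeR called 0, beside 0.00749% of all genes, 1 lay below 0.05 before adjustment, and DESeq2 called 0 (0.828%), with Cybb at -0.79 and all edgeR adjusted p at 1. For the difference in response edgeR called 0, beside 0% of all genes, 2 lay below 0.05 before adjustment, and DESeq2 called 0 (0.171%). The macrophage markers summed to 913 to 1637 FPKM in EC-KO low-flow libraries and to 397, 1444 and 299.6 in control libraries 1, 4 and 5. The 5 fibroblast markers summed to 439 to 1491 FPKM in EC-KO low-flow libraries and to 91.1 to 386 in controls, without overlap, and none of the 5 was called. The part of these cells in the level of Cybb was not tested.

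Control library 4 stood apart in the cytosolic subunits. Ncf1 was at 1.97, 14.97 and 1.58 FPKM in control low-flow libraries 1, 4 and 5, and at 4.96, 10.2 and 7.58 in EC-KO ones. Ncf4 was at 5.25, 40.4 and 3.85 in controls and at 13.5, 23.97 and 24.7 in EC-KO mice. The EC-KO libraries lay within the control range for both genes. The flow response of Ncf4 was 4.38 ± 1.2 in controls (edgeR adjusted p = 0.0696) and 3.50 ± 1.12 in EC-KO mice (0.173), and that of Ncf1 was 3.73 ± 1.11 (0.0804) and 3.85 ± 1.10 (0.135). In controls the value of Ncf4 was 2.53 without low-flow library 4 and that of Ncf1 was 1.95, and with 1 other library left out they reached at most 6.18 and 4.97. The neutrophil markers summed to 205 FPKM in control library 4 and to 5.57 to 19.1 in the other 5 low-flow libraries.

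Rac2 at 7 days was at 17.4, 24.9 and 2.45 FPKM in control low-flow libraries, 12.9, 12.04 and 13.0 in EC-KO low-flow libraries, 2.58 and 0.369 at high flow in controls, and 26.9 and 3.68 at high flow in EC-KO mice. EC-KO high-flow library 4, with 26.9, was above every 7 day low-flow library. Its T and B cell markers summed to 402 FPKM, those of control low-flow library 1 to 196, and those of the other 8 libraries to 3.07 to 48.9, and the part of these cells in Rac2 was not tested. The flow response of Rac2 was 3.24 ± 1.13 in controls (edgeR adjusted p = 0.116, DESeq2 adjusted p = 0.0156) and -0.26 ± 0.96 in EC-KO mice (edgeR adjusted p = 0.926). Without EC-KO high-flow library 4 the latter had the other sign (1.70) and did not pass. Its difference between the genotypes was -3.49 (95% interval -6.69 to -0.29, edgeR adjusted p = 0.986, unadjusted p = 0.0353), which did not pass and was -1.51 without EC-KO high-flow library 4 and -5.46 without control high-flow library 4. Rac2 in EC-KO against control at high flow was at 3.29 ± 1.18 (edgeR adjusted p = 1, unadjusted p = 0.019), and at 1.32 without EC-KO library 4 and 5.26 without control library 4.

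Nox4 was at 5.40, 6.81 and 9.75 FPKM at low flow and 3.32 and 3.31 at high flow in controls, and at 3.83, 6.52 and 9.08 against 2.47 and 3.71 in EC-KO mice. In both genotypes all low-flow libraries lay above the high-flow ones. The log2 fold-change was 1.07 ± 0.44 (edgeR adjusted p = 0.165) and 1.04 ± 0.44 (adjusted p = 0.288), and neither passed. In controls Nox4 passed when the libraries numbered 4 and 5 alone were fitted (1.26, edgeR adjusted p = 0.0321), and in EC-KO mice it did not (0.0612). The smooth muscle markers summed to 639 to 1081 FPKM in the 6 low-flow libraries and 136 to 191 in the 4 high-flow ones, and their part was not tested. EC-KO against control at low flow gave -0.16 for Nox4, with a 95% interval from -1.0 to 0.68. Cyba, at 146, 135 and 72.3 FPKM at low flow and 106 and 90.6 at high flow in controls, overlapped between the flows (log2 0.17 ± 0.33, edgeR adjusted p = 0.789). Control library 5 and EC-KO library 4, from a run of their own, held 72.3 and 80.3 FPKM of Cyba at low flow. The part of the run in this was not tested. Rac1 was at 453 to 505 FPKM in all 6 low-flow libraries and 462 to 556 at high flow, also with overlap.

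The ratio of Cybb to Nox4 at 7 days was 0.981, 2.52 and 0.414 in control low-flow libraries and 5.31, 4.16 and 3.51 in EC-KO ones. At high flow it was 0.166 to 0.422 in both genotypes. Ratios above 1 were found in all 3 EC-KO low-flow libraries and in control low-flow library 4.

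The endothelial cell cultures had 1 library each and no test. In eGFP-sorted primary endothelial cells Cybb had 1 count, or 0.0435 FPKM, and Ncf1, Ncf4 and Rac2 had none, where 3 counts would be 0.233, 0.459 and 0.208 FPKM. In EC-KO primary cells Cybb also had 1 count (0.0219 FPKM) and the same 3 genes none. Control primary cells held 1.74 FPKM of Cybb (95% exact Poisson interval 1.44 to 2.09), 0.560 of Ncf1, 0.157 of Ncf4 and 0.190 of Rac2. Their macrophage markers summed to 345 FPKM, beside 24.6 in the eGFP-sorted cells and 2.04 in the EC-KO cells, so the genotype and the leukocyte content of these 2 cultures cannot be told apart.

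The highest Nox4 levels of the 42 libraries were in the EC-KO and control primary cells. Nox4 stood at 14.3 FPKM in EC-KO cells (95% interval 13.1 to 15.7), 11.6 in control cells (10.6 to 12.5) and 6.62 in eGFP-sorted cells (5.45 to 7.97). The smooth muscle markers summed to 2768, 3480 and 1648 FPKM in the same order, above the endothelial markers (2048, 1891 and 1534). The study's methods describe sorting of cultured cells on Pecam1 and Icam2 or on eGFP. The part of smooth muscle cells in the level of Nox4 was not tested. The intervals of Nox4 do not overlap, but they cover counting error only, and PCR copies are not independent molecules. Cyba stood at 87.2, 79.2 and 450.2 FPKM in the same order. The eGFP-sorted cells came from the first run and had 5 days in culture, the other primary cells 7 days in a later run.

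In the endothelial cell line alone Cybb was at 0.104 FPKM (95% interval 0.0417 to 0.213) and Ncf1, Ncf4 and Rac2 had no counts. With plasma, Cybb was at 0.0776 FPKM (0.0252 to 0.181). With platelets and macrophages it was at 1.62 (1.33 to 1.96), and with plasma as well at 0.569 (0.412 to 0.767). Ncf1 was at 2.84 and 2.01 FPKM, Ncf4 at 1.03 and 1.07, and Rac2 at 0.861 and 1.01 in these latter 2 cultures. In the line, Ncf1, Ncf4 and Rac2 were thus found above a few counts only where macrophages had been added. There the macrophage markers summed to 391 and 269.7 FPKM, beside 16.4 in the line alone and 44.9 with plasma only.

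Nox4 in the line was at 2.497 FPKM alone (95% interval 2.08 to 2.98), 3.17 with plasma (2.68 to 3.73), 3.31 with platelets and macrophages (2.81 to 3.87) and 5.21 with all (4.63 to 5.85). The first 3 intervals overlap in part and the last lies above them. Cyba was at 150, 109, 119 and 101 FPKM in that order, highest in the line alone. Rac1 stayed between 399.8 and 453 FPKM in the line.

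**Figure D4:**
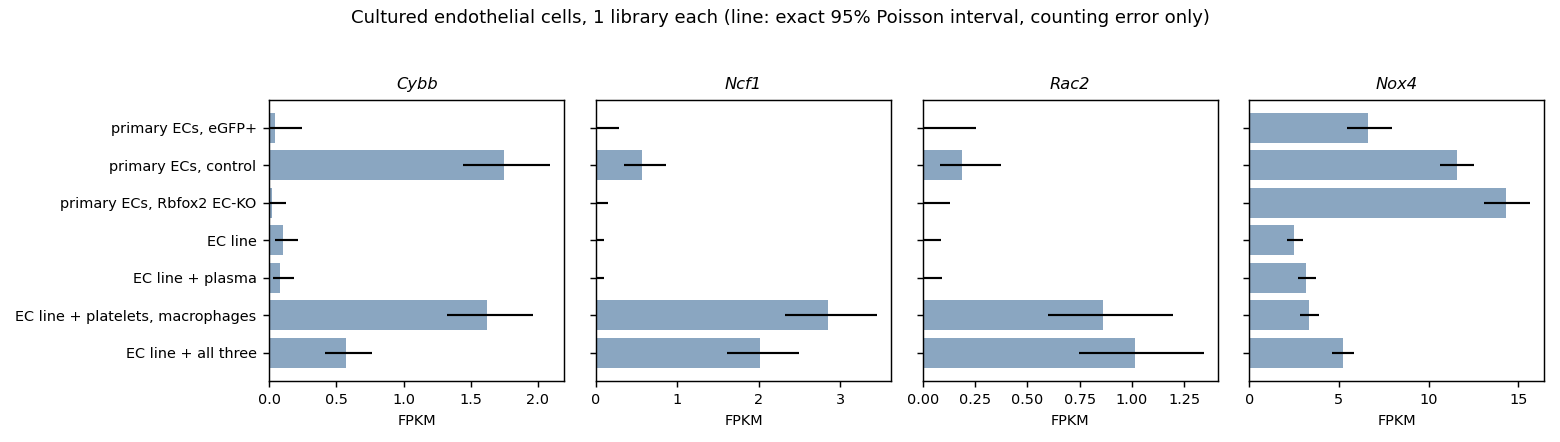
Level of Cybb, Ncf1, Rac2 and Nox4 in the 7 endothelial cell cultures (bars, FPKM, 1 library each; the bar of the line with everything added had plasma, platelets and macrophages), with lines for the 95% Poisson interval of the count. Cybb, Ncf1 and Rac2 are seen in control primary cells and in the line with added macrophages, while Nox4 is present in all 7.

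Across the 35 artery libraries, genes of the table whose levels ran most like Cybb were Irf5, Clec12a, Gpr141 and Clec4a3, with Pearson correlations of log2(FPKM + 0.5) from 0.95 to 0.96 among 11149 genes compared. Ncf4 came at rank 27 (0.93), Ncf1 at 46 (0.91) and Rac2 at 211 (0.75). Cyba correlated with Cybb at 0.31, Nox4 at 0.48 and Rac1 at -0.04. Those most like Nox4 were Prps1l3, Osbpl3, Ide, Tex10 and Slc35b4, from 0.85 to 0.87. These values are descriptions, since the libraries share runs, pools and differences in the cells they hold.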

How the data were processed

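Low-input RNA-seq libraries of mouse carotid intima and endothelial cultures were analysed. Per the labels and the file headers, the authors mapped reads to mm9, with STAR 2.5.1b and RSEM 1.2.15 named in the submitters' processing notes, and deposited expected counts per gene that are not normalized, with RPKM and a single effective length per gene. For the untreated 48 hr pools the study's methods name TopHat and a legend names STAR. Of 204 columns of values, 127 were not read, among them the second sequencing run of the untreated pools. The unnamed entry of the table, at most 0.117% of a library's counts, was left out.

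FPKM values were computed from each expected count, the deposited effective length and the library total. The rounded counts were tested with edgeR 4.0.16 (R 4.3.3), using filterByExpr, TMM factors, quasi-likelihood tests and p-values adjusted over all genes tested by Benjamini-Hochberg, with an adjusted p under 0.05 as threshold. Untreated groups were compared pair by pair, the 7 treated 48 hr groups and the 4 groups at 7 days were each fitted together, and all tests are two-sided. DESeq2 1.42.0 was an alternative, with other scalings, filters and left-out libraries. Scripts were tested on simulated data with 200 changed genes. Intervals of single libraries are exact Poisson intervals.

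Groups come from the sample labels. Artery replicates are separate pools of arteries, so p-values measure the spread between pools. Where groups are said not to overlap, the share of all genes that separate in this way was not computed. The members, marker lists and the list of 41 pathway genes were chosen with earlier results of these data known. The rule named the members, up to 3 pathway genes per role by lowest p between untreated flows, and the 5 genes most like Cybb and Nox4. Some genes named by this rule are not reported here.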

Additional observations from a re-analysis of the deposited data

How the results depend on the processing

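Of 1308 recomputed fold-changes of single genes, 1208 kept their side of the threshold, 57 lost it, 43 gained it and none that was called changed sign. 53 values past no threshold had another sign, among them Nox4 between the untreated flows. Of 187 recomputed counts of the 7 genes called, 155 stayed within 1.5 times. The exceptions follow, with the cause not tested except where fewer libraries were fitted. With low-flow pool c alone, chosen after the data were seen, 0 were called against sham. DESeq2 called 1 between high flow and sham, 4 for clodronate, 4 for anti-GPIba against anti-Gr1, 4 for flow in 7 day controls and 3 in EC-KO mice. With no filter, 3 were called for clodronate and 3 for anti-GPIba against anti-Gr1. The 2 groups alone gave 4 for anti-GPIba against anti-Gr1, 0 for flow in 7 day controls and 3 in EC-KO mice. Libraries numbered 4 and 5 alone gave 4 in controls.

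Leaving out 1 library at a time gave 3 to 5 for flow under PBS liposomes, 0 to 3 for anti-GPIba against IgG, 0 to 2 for clodronate, 0 to 3 for flow in 7 day controls and 0 to 0 in EC-KO mice. Where 1 library is left in a group, it is assumed to vary like the others.

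With a replicate block, 1 gene was called for clodronate, 5 for flow in 7 day controls and 4 in EC-KO mice, Nox4 among them in both genotypes (edgeR adjusted p = 0.0225 and 0.0371). Same-numbered libraries correlated at a median of 0.0197 in the treated groups (from -0.166 to 0.477, 42 pairs) and 0.18 at 7 days (from -0.0416 to 0.505, 13 pairs), so the numbers were not taken to pair the samples. For the untreated pools, no block was fitted. No paired analysis was possible because the pool letters of the untreated columns differ between groups, and a, b and c only name pools within a group. Reads trimmed to 100 bases and library totals without factors were also chosen after the data were seen. Depth limits Ncf1, Ncf4 and Rac2 at high flow and in cultures, where a few counts set the level. The second run of the untreated pools and the sum of both runs were planned as alternatives and not run, because their columns could not be tied to single samples.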
